A study of Mus musculus with 6 samples.

Results

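The cadherins and protocadherins are the genes whose symbol begins with Cdh and a number, with Cdhr or with Pcdh, together with *Fat1* to *Fat4*, *Dchs1*, *Dchs2* and *Celsr1* to *Celsr3*. By this rule 106 of the 25043 genes in the RNA-Seq table were members, with the transcript of highest mean taken for each gene. Of these, 58 are clustered protocadherins of chromosome 18, with 14 alpha, 22 beta and 22 gamma genes, and 48 stand alone in the genome. The choice used no measured value other than the mean that picked the transcript.

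RNA was sequenced from primary mouse embryonic fibroblasts (MEFs), which are connective tissue cells grown out of embryos. There were 3 libraries from WT and 3 from *Anp32e*-/- cells, which are null for the histone chaperone ANP32E. Both groups were untreated, were grown in the same serum-containing medium and were used at a passage below 8. The cells were donated from embryos of each genotype, and how many embryos they came from is not given in the sources used here. The study describes its replicates as biological. The table gives 1 mean normalized count per transcript over all 6 libraries, that is, read counts divided by a size factor for each library and then averaged. WT and *Anp32e*-/- cells are pooled in that mean, so the values below describe the MEFs of this study as a whole, and no difference between genotypes was tested. The targeted gene, *Anp32e*, had a pooled mean of 2190 normalized counts, which does not check the labels.

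Cadherins are calcium-dependent adhesion proteins of the cell surface. Classical cadherins bind the same cadherin on a neighbouring cell and are tied to actin inside the cell by catenins, whereas the giant Fat and Dachsous proteins and the seven-pass Celsr proteins orient cells within a tissue. Protocadherins have no catenin-binding tail, and the clustered protocadherins give neurons individual surface identities. Mesenchymal cells such as fibroblasts are known for N-cadherin and cadherin-11 in place of the E-cadherin of epithelia.

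All 10 fibroblast markers reached a mean of 10 normalized counts, from *Pdgfra* at 91.9 to *Vim* at 150796 normalized counts per kb of exon. Markers of other cells were mostly low but not all absent. At least 10 normalized counts were reached by 3 of 8 epithelial markers (the highest was *Krt18* at 769 normalized counts per kb), 2 of 6 endothelial (*Kdr*, 499), 2 of 5 macrophage (*Cd68*, 209), 1 of 5 skeletal muscle (*Acta1*, 3258), 1 of 5 neural crest and glial (*Erbb3*, 16.2) and 5 of 5 mesothelial markers (*Krt19*, 4696). *Epcam* stood at 2.51, *Pecam1* at 1.30 and *Ptprc* at 0.609 normalized counts per kb, and *Myod1* had no reads. In bulk RNA, few cells with much of a transcript and many cells with little of it cannot be told apart.

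Of the 106 genes, 101 had reads and 71 (66.98%) reached a mean of 10 normalized counts. Over all 25043 genes this share was 56.9%. Of the single-gene members 28 of 48 (58.3%) reached 10, and of the clustered genes 43 of 58 (74.1%), although the alpha and gamma genes of a cluster were not counted separately from each other, as described below. Per kb of exon the members at or above 10 had a median of 22.9 normalized counts, and the single-gene members among them 20.7, against 349.9 for all genes at or above 10. Only 1 single-gene member, *Fat1*, lay among the upper 10% of genes per kb.

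Another 15 single-gene members had reads but a mean under 10, and 5 of these were under 1. No read was counted for *Cdh8*, *Cdh9*, *Cdh16*, *Cdh19* and *Cdhr3*. A total of 3 reads, the upper limit that a count of 0 allows, would give a mean of about 0.497 normalized counts. This limit covers counting error only.

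**Figure D1:**
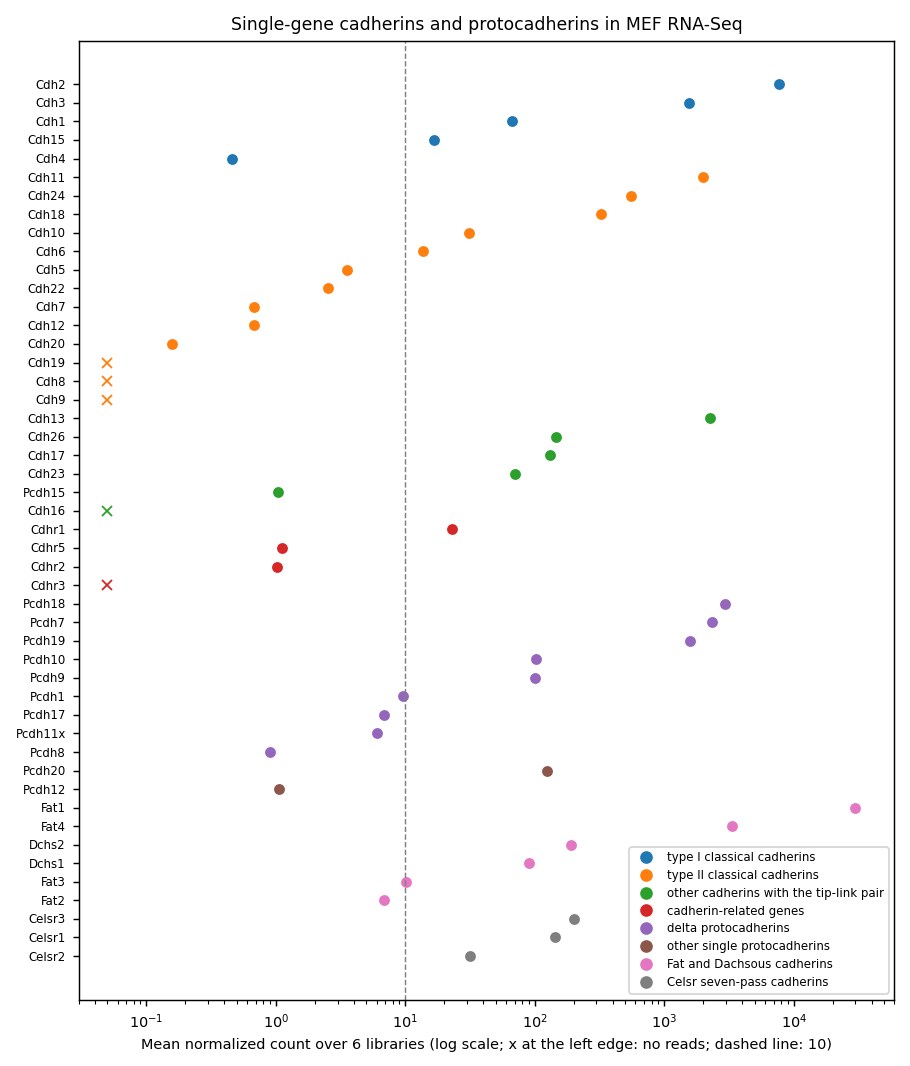
Mean normalized count over 6 libraries (log scale) of each of the 48 single-gene members, coloured by subfamily and ordered within it. The dashed line marks 10, and crosses at the left edge mark the 5 genes without reads. *Fat1* at 29532 and *Cdh2* at 7735 lie farthest to the right.

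Among the 5 type I classical cadherins, which form the adherens junctions of most solid tissues, *Cdh2* (N-cadherin, the cadherin of neural and mesenchymal cells) was highest. It had 7735 normalized counts and 1597 per kb, above 89.4% of genes with a known exon length. *Cdh3* (P-cadherin) followed with 1558 normalized counts and 355.4 per kb. Its neighbour *Cdh1* (E-cadherin), which begins 46439 bases beyond the end of *Cdh3* on chromosome 8 (GRCm38, *Cdh3* from 106510852 to 106556911 and *Cdh1* from 106603350 to 106670247), had 67.1 normalized counts and 389 reads in all. *Cdh15* (M-cadherin, known from muscle) had 16.5 and *Cdh4* (R-cadherin) 0.457 normalized counts.

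The 13 type II classical cadherins were led by *Cdh11* (cadherin-11 or OB-cadherin, known from mesenchyme and bone) with 2009 normalized counts and 355.7 per kb, next to the level of *Cdh3*. *Cdh24* had 553 and *Cdh18* 323 normalized counts, which is 159 and 118 per kb. *Cdh10* (31.0 normalized counts) and *Cdh6* (13.6) completed the 5 that reached 10. *Cdh5* (VE-cadherin, the defining junction protein of endothelium) had a mean of 3.54 normalized counts. Of the 6 endothelial markers *Kdr* had 2958 and *Tek* 34.4 normalized counts, and *Pecam1* (4.47), *Tie1* (2.78), *Cldn5* (1.84) and *Emcn* (0) were under 10. *Cdh22*, *Cdh7*, *Cdh12* and *Cdh20* had means from 0.159 to 2.54, with *Cdh20* the lowest, and *Cdh8*, *Cdh9* and *Cdh19* had no reads.

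*Cdh13* (T-cadherin, held in the membrane by a lipid anchor instead of a transmembrane segment) had 2254 normalized counts and 595 per kb. Of the same group of atypical cadherins, *Cdh26* had 147 and *Cdh17* (LI-cadherin, known from intestine) 131 normalized counts. The tip-link pair of the inner ear, *Cdh23* and *Pcdh15*, was unequal, at 70.6 and 1.03 normalized counts, and *Cdh16* (KSP-cadherin, known from kidney) had no reads. Of the 4 cadherin-related genes in the table only *Cdhr1*, known from photoreceptors, reached 10, with 22.9 normalized counts. *Cdhr5* and *Cdhr2*, partners in the brush border of intestinal cells, had 1.13 and 1.01, and *Cdhr3* had none.

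The delta protocadherins are single genes with conserved tails, known mostly from the developing nervous system, and 5 of 9 reached 10. *Pcdh18* had 2967 normalized counts and 574 per kb. *Pcdh7* had 2346 normalized counts and 418 per kb, but 38.9% of its exon bases overlap *4932441J04Rik* in the GENCODE annotation, counted on either strand. Reads of such a pair cannot be told apart if both lie on the same strand or if strand was not used in the counting. *Pcdh19*, on chromosome X, had 1588 normalized counts and 154 per kb. *Pcdh10* and *Pcdh9* were far lower, at 103 and 101 normalized counts. *Pcdh1*, *Pcdh17* and *Pcdh11x* lay between 6.04 and 9.60, just under 10, and *Pcdh8* at 0.896. Of the remaining single protocadherins *Pcdh20* had 123 normalized counts and *Pcdh12*, known from endothelium, 1.06.

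*Fat1*, whose product is a giant cadherin that acts on actin and on Hippo signalling, had the highest mean of all members. It had 29532 normalized counts, from between 161054 and 200370 reads over the 6 libraries, and 2019 per kb. Its gene lies on chromosome 8 (GRCm38, from 44933100 to 45052257). *Fat4*, the receptor for Dachsous proteins, had 3315 normalized counts and 206 per kb, and 9.2% of its exon bases overlap other genes. Its ligand genes *Dchs2* and *Dchs1* had 192 and 91.0 normalized counts, and part of the *Dchs2* exons overlaps *Gm10710*. *Fat3* had 10.1 and *Fat2* 6.84. The 3 *Celsr* genes, the core planar polarity cadherins, all reached 10, with *Celsr3* at 203, *Celsr1* at 143 and *Celsr2* at 31.8 normalized counts, or 17.6 per kb for *Celsr3* as the highest of them.

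For low means the reads of each library could be worked out, because only 1 set of whole reads divided by the 6 size factors gives the deposited mean to its last digits. This succeeded for 57 of 58 members with reads whose highest transcript mean was under 100. For *Pcdh9* and *Pcdh10*, with highest means above 100, only lower transcripts were resolved. The libraries are numbered 1 to 6 from the largest size factor (1.13) to the smallest (0.909), and the table does not say which genotype each belongs to. *Cdh1* had 9, 4, 152, 6, 105 and 113 reads in libraries 1 to 6. *Cdh15* had 6, 6, 29, 8, 31 and 17 reads, and *Cdhr1* 9, 3, 34, 10, 45 and 32. Libraries 3, 5 and 6 held the higher values of these 3 genes.

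*Pcdh10* had 215, 180, 20, 155, 11 and 9 reads on one of its shorter transcripts, so that libraries 1, 2 and 4 were high. *Pcdh9* varied less on its lowest transcript, from 50.2 to 133 normalized counts with a median of 96.9. *Cdh23*, from 59.2 to 85.5, and *Dchs1*, from 67.9 to 107 normalized counts, spread the least of the single-gene members in the plot of counts by library. *Cdh6*, with 19, 17, 10, 14, 10 and 13 reads, came next. *Fat3* had 17, 25, 11, 11, 0 and 0 reads, and *Pcdh11x* 13, 10, 2, 12, 0 and 1.

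Several of the lowest means came from single libraries. All 7 reads of the highest *Pcdh15* transcripts came from library 1, all 4 reads of *Cdh12* from library 4 and the only read of *Cdh20* from library 2. Of the 57 members 30 had a read in all 6 libraries and 4 in only 1. The 30 include all resolved alpha genes, which counted mostly the same shared reads, as described below. *Cdh5* had 4, 3, 1, 5, 0 and 8 reads, low in each library.

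**Figure D2:**
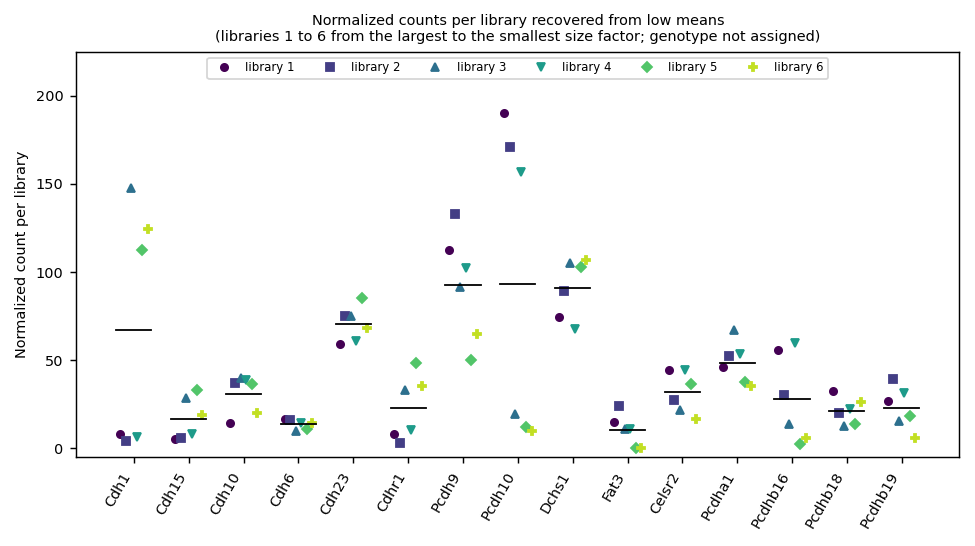
Normalized count in each of 6 libraries (symbols, library 1 to 6 by falling size factor) for 15 members whose reads could be resolved, with the mean as a black bar. *Pcdh9* and *Pcdh10* are shown by their highest resolved transcript. *Cdh1* runs from 3.80 to 148 normalized counts, while *Cdh23* stays between 59.2 and 85.5.

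The clustered protocadherins lie in a row on chromosome 18 in the order alpha, beta, gamma. Each alpha or gamma transcript joins 1 long first exon of its own, which encodes the extracellular part, to 3 exons shared by the whole cluster. Each beta gene is a single exon. Of the 14 alpha genes, 9 had exactly the same mean, 48.6 normalized counts, so the reads on the shared exons were counted for every gene. These shared reads numbered 52, 55, 69, 53, 35 and 32 in libraries 1 to 6. What exceeds the lowest gene of a cluster therefore stands for a gene's own exon, and the lowest gene for the shared exons. This sets the own exon of the lowest gene to 0. Only 1 gamma gene stood at the lowest value of its cluster. The gamma levels are therefore upper limits for the shared exons and lower limits for the own exons.

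On this scale the alpha cluster was nearly all *Pcdhac2*, one of the C-type isoforms at the end of the cluster. It had 106 normalized counts, 57.4 over the lowest alpha gene. Per kb of own exon this was 19.0 of a summed 19.6 normalized counts, or 96.6%. *Pcdha5*, *Pcdha6*, *Pcdha9* and *Pcdha10* exceeded the lowest by 0.183 to 0.831 normalized counts. The shared exons, 2860 bases long, had 17.0 normalized counts per kb, 0.866 of the sum of the own exons.

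By the lowest gene of each, the gamma cluster was 134-fold higher than the alpha cluster per kb of shared exon. Its shared exons had at most 2281 normalized counts per kb, from its lowest gene with a paired exon model, *Pcdhga8*, which had 4832 normalized counts. *Pcdhgc3*, also a C-type isoform, had 9053 normalized counts, 4220 over the lowest, while the other 20 genes with exon models lay within 6.84% of each other. Per kb of own exon *Pcdhgc3* held 1643 of 2254 normalized counts, or 72.9%, on this scale. That share is an upper limit, because any reads on the own exon of *Pcdhga8* would add to every own exon. However, 1513 of the 2568 own bases of *Pcdhgc3* (58.9%) lie under *BC037039*, annotated on the opposite strand, and its part in the count cannot be told apart if strand was not used. In 8 of the 21 gamma genes and 4 of the 14 alpha genes the own exon lay at least partly under an opposite-strand gene. *Pcdhac2* was not among these alpha genes. *Pcdhgb2* was next with 130 and *Pcdhga10*, whose own exon lies wholly under *Gm26672* on the opposite strand, followed with 76.1 per kb, whereas the C-type genes *Pcdhgc4* and *Pcdhgc5* had 2.56 and 26.0. In all, 18 gamma genes and 1 alpha gene exceeded the lowest gene of their cluster by at least 10 normalized counts. That cut is a far smaller part of the lowest gamma gene (4832) than of the lowest alpha gene (48.6). These counts of genes are therefore not comparable between the clusters. The shared gamma exons stood at 1.01 times the sum of the own exons, likewise an upper limit. *Pcdhgb8*, entered as a noncoding transcript, had 2459 normalized counts, the lowest mean of the cluster at 0.509 of *Pcdhga8*.

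**Figure D3:**
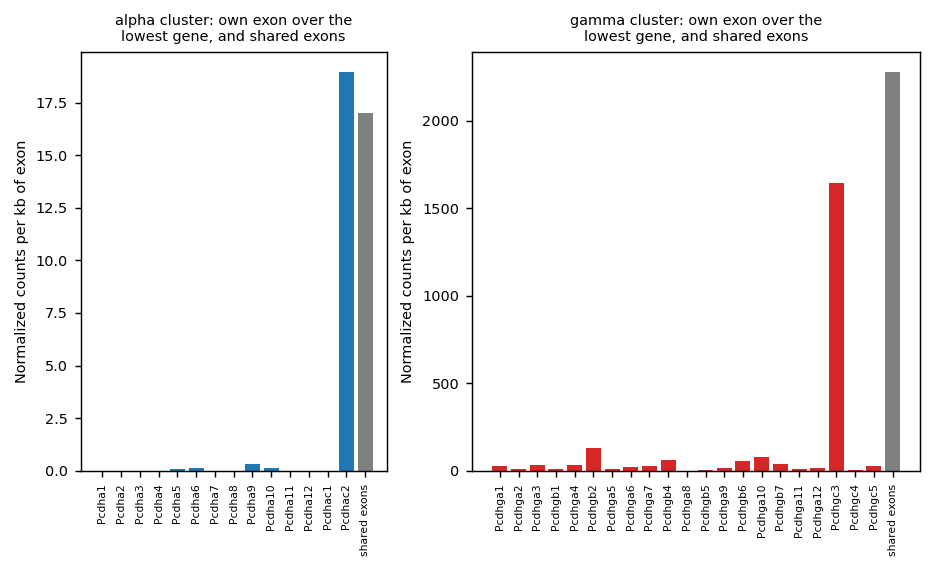
Normalized counts per kb of each gene's own exon, taken over the lowest gene of its cluster, for 14 alpha and 21 gamma genes in chromosome order, with the shared exons of the cluster in grey. The axes differ between panels. On this scale *Pcdhac2* (19.0 per kb) and *Pcdhgc3* (1643 per kb) hold most of the own-exon level of their clusters. The share of *Pcdhgc3* is an upper limit.

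The 22 beta genes carry no shared exon, and their summed level was 66.6 normalized counts per kb of the GENCODE exon. For 6 of them that exon is over 1.4 times as long as the gene's RefSeq span (up to 2.53 times for *Pcdhb14*), and per kb of RefSeq span the sum was 99.4. The 7 that reached 10 are the last 7 in the row, *Pcdhb16* to *Pcdhb22*, at 14.5 to 104 normalized counts. The first 15 ran from 0.183 (*Pcdhb1*) to 9.29 (*Pcdhb14*) with a median of 1.60, and the last 7 held 86.3% of the summed level per kb of GENCODE exon, or 88.9% per kb of RefSeq span. *Pcdhb17* at 104 and *Pcdhb22* at 96.6 normalized counts were the highest, with 22.3 and 14.6 normalized counts per kb of GENCODE exon but 31.8 and 31.5 per kb of RefSeq span. The beta genes are also alike in sequence, and how reads that match several of them were treated is not given in the sources used here.

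Beta genes differed in how even they were across libraries. *Pcdhb16* had 63, 32, 14, 59, 2 and 5 reads in libraries 1 to 6 and *Pcdhb19* 30, 41, 16, 31, 17 and 5. *Pcdhb18* had 37, 21, 13, 22, 13 and 24, a narrower range in normalized counts (12.7 to 32.7). The shared alpha exons ranged from 35.2 to 67.2 normalized counts, with a median of 49.1.

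**Figure D4:**
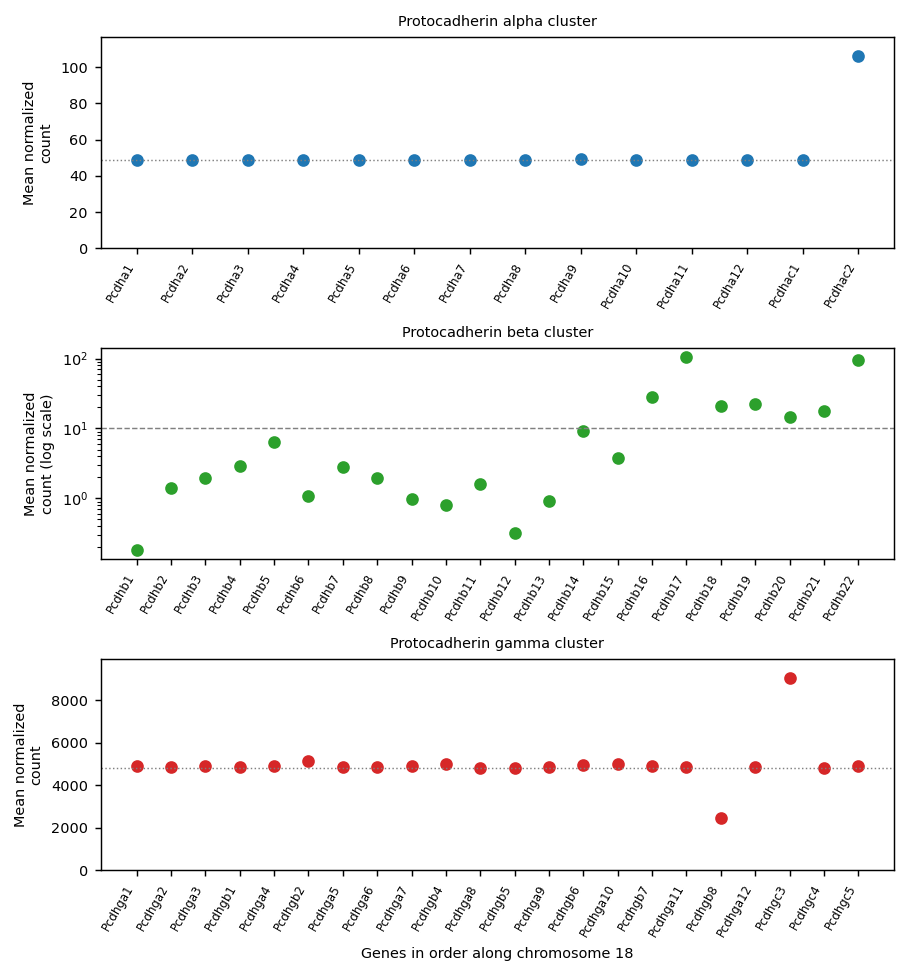
Mean normalized count over 6 libraries of the alpha, beta and gamma genes in their order along chromosome 18, on a linear scale for alpha and gamma and a log scale for beta. Dotted lines mark the lowest alpha gene (48.6) and the lowest gamma gene with an exon model (4832), and the dashed line marks 10. One gene stands above each flat row, and the beta level rises toward the end of the cluster.

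The 106 genes are entered as 153 transcripts, and 19 genes have several. Of the 16 with reads, 8 had a single value for all transcripts and 8 had different values. *Pcdh10* ranged from 83.7 normalized counts for its transcript of 1 exon to 103 for its longest with 5 exons. *Pcdh7* ranged from 2295 to 2346 and *Pcdh19* from 1580 to 1588. *Pcdh15*, with 14 transcripts, had 0.442 for 12 of them and 1.03 for the rest.

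RNA of genes that work with cadherins was examined in 5 lists, beside which the share of all genes at or above 10 normalized counts was 56.9%. The lists were chosen by hand and no difference from the members was tested. Of 9 catenin genes 8 reached 10 normalized counts. *Ctnna1* (alpha-catenin, the actin link) was highest at 10094 normalized counts per kb, *Ctnnb1* (beta-catenin, which binds the classical cadherin tail) had 8280, *Jup* (plakoglobin) 2106 and *Ctnnd1* (p120-catenin, which keeps cadherins at the surface) 1686. *Ctnna3*, known from heart, was lowest at 1.99. All 6 proteases known to cut cadherins reached 10, from *Psen2* at 252 to *Mmp14* at 5816 per kb. So did 10 of 10 partners of the Fat, Dachsous and planar polarity proteins, from *Fzd3* at 15.9 to *Wwtr1* (the Hippo effector TAZ) at 1998 per kb. All 9 genes known to regulate the clustered protocadherins reached 10, from the DNA methyltransferase gene *Dnmt3b* at 20.3 to the cohesin gene *Rad21* at 2858 per kb. Of 9 desmosomal cadherins only *Dsg2* reached 10, at 7.33 per kb, and 5 had no reads.

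**Figure D5:**
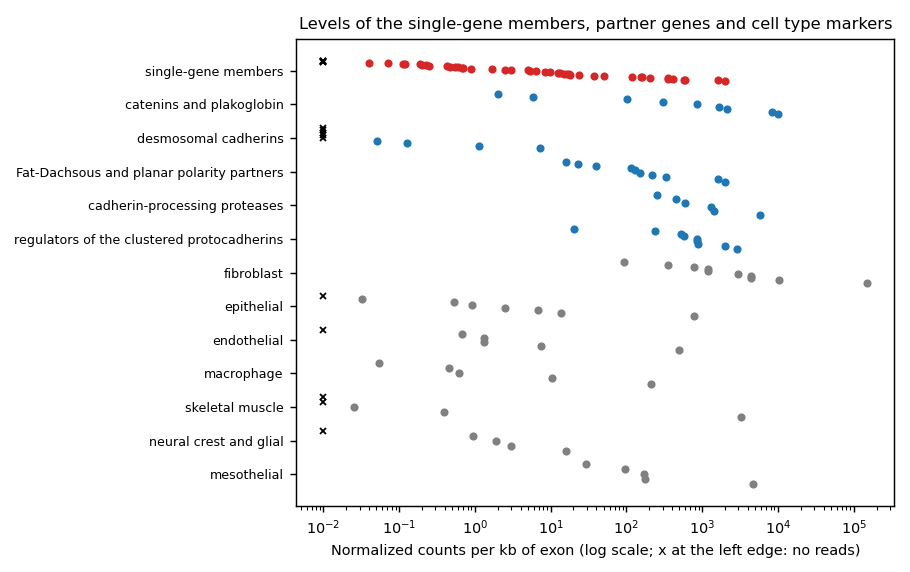
Normalized counts per kb of exon (log scale) for the single-gene members (red), 5 lists of partner genes (blue) and 7 lists of cell type markers (grey), each point a gene, with genes without reads as crosses at the left edge. *Ctnna1* is the highest partner gene at 10094 per kb, and the desmosomal cadherins lie at or below 7.33.

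RefSeq promoter windows of 300 bases, 250 before and 50 after the start (GRCm38.p6), were matched to 33 members. For 25 of these the start lay within 100 bases of that of the paired GENCODE transcript. No clustered protocadherin is among the 33, and *Cdh1*, *Cdh2*, *Cdh3*, *Cdh11* and *Cdh13* are missing too. The count of CG dinucleotides, read along one strand, had a median of 12.5 in the 20 members at or above 10 normalized counts and of 9 in the 13 under 10. Over all genes the medians were 22 (11131 genes) and 3 (7524 genes). As an example, the 250 bases before the start are shown for *Pcdh18*, the delta protocadherin with the highest mean, and for *Cdh8*, which had no reads. They lie at chr3:49757317-49757566 and chr8:99416472-99416721, both on the minus strand and written 5′ to 3′, with each CG in capitals. The start is that of the promoter window and not the end of the RefSeq gene span. That span reaches to 49757383 for *Pcdh18*, whose stretch lies partly inside it. For *Cdh8* it reaches to 99417666, and the whole stretch lies inside it.
Pcdh18: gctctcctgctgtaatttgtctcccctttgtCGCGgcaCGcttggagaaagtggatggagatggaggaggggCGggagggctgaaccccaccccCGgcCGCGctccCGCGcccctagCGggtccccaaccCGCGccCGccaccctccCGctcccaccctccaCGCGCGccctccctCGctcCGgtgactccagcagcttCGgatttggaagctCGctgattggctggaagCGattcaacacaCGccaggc
Cdh8: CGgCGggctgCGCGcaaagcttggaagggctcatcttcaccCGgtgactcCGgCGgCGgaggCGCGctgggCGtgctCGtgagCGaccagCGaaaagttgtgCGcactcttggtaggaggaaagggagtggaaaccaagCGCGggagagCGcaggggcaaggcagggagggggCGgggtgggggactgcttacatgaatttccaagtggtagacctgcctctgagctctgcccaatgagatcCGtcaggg
The stretch of *Pcdh18* holds 23 CG dinucleotides and that of *Cdh8* 20, although the genes lie at 2967 normalized counts and at 0. The pair was chosen after the values were seen. A CG count is a description of the sequence and says nothing of methylation, which was not measured here.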

How the data were processed

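RNA levels were examined in MEFs with 3 WT and 3 *Anp32e*-/- libraries. The authors prepared libraries with a stranded total RNA kit, aligned reads with STAR to mm10 (GRCm38), used featureCounts of Subread to count reads per RefSeq transcript, and normalized with DESeq2. The study's methods name default settings for the counting, under which featureCounts does not use strand, but equal means of genes with shared exons show that reads over several transcripts were counted for each, which is not its default. The strand setting is not otherwise stated. The study lists versions of STAR and DESeq2, which are not repeated here. The single deposited table holds 42361 transcripts. Its signal column, made by the authors, averages counts divided by size factors over all 6 libraries. Its other 5 value columns hold the authors' own comparison (log2 fold change, standard error, test statistic, p-value and adjusted p-value) and were not used, so no test between genotypes was made.

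Transcripts were matched to genes with RefSeq (42203 matched, 158 not), and exon lengths came from GENCODE release M21 transcripts paired with them (24216 genes). These exons can differ in length from the RefSeq models on which reads were counted, so beta genes are also given by RefSeq span, an alternative added after seeing the data. One transcript per gene, that with the highest mean, was kept. Levels between genes were compared per kb of exon where this unit is given. Where only normalized counts are given, genes were ranked by means without division by exon length. The minimums for counting and for naming genes also applied to these undivided means. Such rankings and minimums are therefore not corrected for length. Size factors were recovered from the single-read steps of the lowest means and refined by least squares over 377 low means. Reads per library were solved for means under 100 as the only whole numbers that give the mean within 1e-13 normalized counts. On simulated data all 172 means had a single solution, and all were right. Total reads per library are unknown. Libraries were not matched to genotypes.

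The members and lists were chosen with earlier results of these data known. Named were members with a mean of at least 100, the highest and lowest with reads in each subfamily, members without reads, the highest and lowest gene of each partner list and *Anp32e*. Further members were named after their values were seen. Other count minimums, transcripts and scalings were tried. Tools were numpy 2.4.6, pandas 2.3.3 and matplotlib 3.10.9 under Python 3.11.15.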

Additional observations from a re-analysis of the deposited data

How the results depend on the processing

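Of 19 alternatives over 8 results, 16 kept the result within the limit set for it and 3 moved it, by 2 rules. Counts of genes, the beta percentage and the median under the RefSeq span could differ by up to 1.5 times. The other medians, the leading genes and the summed beta level had to be equal. The summed beta level was thus counted as moved, although it lay within 1.5 times. With a minimum of 5 or 20 normalized counts, 77 or 66 members passed in place of 71, and counting any read gave 101. The longest transcript of each gene left 71 members and the median of 22.9 per kb. The leading gene of all 11 subfamilies and clusters was the same with the longest transcript, without division by length and with the RefSeq span as the length of the beta genes. That span, an alternative chosen after seeing the data, raised the summed beta level from 66.6 to 99.4 per kb and the median of members from 22.9 to 31.6 per kb. With the lowest value of the same cluster taken from the alpha and gamma genes, 26 clustered genes reached 10 in place of 43, since shared reads then no longer counted for every gene. Without division by length the median of members at or above 10 was 146.9 normalized counts, which is another quantity than the 22.9 per kb. No paired analysis was possible because the table gives no value per labelled library, and for the same reason replicates could not be left out in turn. Library depth limits the members under 10, whose means rest on few reads.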

Other observations

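The values of several members fell into separate clusters of libraries. For *Cdh1* the normalized counts in libraries 1 to 6 were 7.96, 3.80, 148, 6.08, 112 and 124, so that no library lay between 7.96 and 112. For *Pcdh10*, on its highest resolved transcript, they were 190, 171, 19.5, 157, 11.8 and 9.9. *Cdhr1* had 7.96, 2.85, 33.1, 10.1, 48.1 and 35.2, with no library between 10.1 and 33.1.

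Among 17 members with a resolved mean of at least 10, the alpha genes counted once, libraries 3, 5 and 6 were the 3 highest for 4 (*Cdh1*, *Cdh15*, *Cdhr1* and *Dchs1*) and the 3 lowest for 6 (*Fat3*, *Pcdh9*, *Pcdh10*, *Pcdhb16*, *Pcdhb19* and *Pcdhb20*). The remaining 7 members divided the libraries in other ways. In *Dchs1*, *Fat3* and *Pcdh9* the gap between the 3 higher and the 3 lower libraries was at most 1.15 times. The genotype of these libraries was not assigned, and no difference between them was tested. The same division was not counted over all genes, so it cannot be called particular to these members.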
